A study of Ranunculus trichophyllus with 6 samples.

Results

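Pectin methylesterase 17 (*PME17*, AT2G45220), the endoglucanase *KOR2* (AT1G65610) and the xyloglucan endotransglucosylase/hydrolases *XTH32* (AT2G36870) and *XTH5* (AT5G13870) are cell wall enzymes of Arabidopsis whose closest matches were followed here in *Ranunculus trichophyllus*. An assembled transcript was taken as a member when its best protein match, in the annotation made by the study, was one of these 4 Arabidopsis genes. This gave 7 transcripts, out of 17559 transcripts with an Arabidopsis match and 210686 assembled transcripts in all. Transcripts with the same match were summed into a homolog, so the members were 4 of 8613 homologs. The 4 were chosen by their measured counts, because these differed between aquatic and terrestrial plants in these same libraries. Their difference between the conditions is therefore given as a description and carries no test.

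The growing plant wall is a network of cellulose fibres tied together by xyloglucan and set in a gel of pectin. Pectin methylesterases take methyl groups off pectin after it has reached the wall, and depending on the pattern they leave, the gel can stiffen with calcium or become open to pectin-cutting enzymes. Membrane-bound endoglucanases of the KORRIGAN type, in glycoside hydrolase family GH9, act with the cellulose-making complex, and xyloglucan endotransglucosylase/hydrolases, in family GH16, cut and rejoin the xyloglucan tethers. Wall enzymes of these kinds set how far a leaf cell can expand, and amphibious plants such as *R. trichophyllus* form leaves of a different shape under water and on land.

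The study compared seedlings grown on land (terrestrial) with seedlings submerged from the age of a week (aquatic) by RNA sequencing of 6 libraries, 3 for each condition. Shoots freed of cotyledon and hypocotyl were used, from plants kept in long days. According to the labels, the first replicate of each condition held leaves of 14-day-old plants, while the shoot apical meristem was included with the leaves in replicates 2 and 3, taken at 11 days. The study's methods instead describe a single harvest for sequencing, at a time that matches neither labelled age. The paper gives the tissue as shoot tops with their apexes, elsewhere as whole plants, and not as leaves alone. The harvest values, and the time each library spent under water, thus rest on the labels alone. Age, tissue and replicate number 1 therefore go together and cannot be told apart; the contrast between them is called the harvest below. All plants were seedlings of a single species, and nothing in the labels says whether the libraries of a condition came from separate cultures, so p-values measure the spread between these samples only. Libraries held 25345718 to 33978729 expected counts, that is, sequenced fragments assigned to transcripts.

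Some libraries stood apart. In aquatic replicate 1, 36.2% of the counts fell in 3 transcripts without annotation, against 0.287% to 0.987% in the other libraries. In aquatic replicate 2, 1633 of the 1722 transcripts matched to fungal proteins were detected, where the other 5 libraries held 54 to 161 of them, and they took 0.582% of its counts against 0.0656% to 0.151%. Levels are given as CPM, counts scaled to a fixed total of counts in Arabidopsis homologs, with TMM factors, so the 3 unannotated transcripts do not enter them. Of 12 markers of meristems and dividing cells, 8 had a homolog, with summed levels of 29.9 CPM in terrestrial replicate 1 and 14.95 CPM in aquatic replicate 1 against 241 to 517 CPM in the 4 libraries at 11 days. *STM* and *KNAT1*, which keep the meristem undifferentiated, had no count in the 14-day libraries. Root markers summed to 25.3 to 75.6 CPM, nearly all of it from *SHR* and *SCR*, which leaves also express, while *PYK10* had no count in any library and *WOX5* at most 0.136 CPM. The 3 measured green leaf markers summed to 26960 to 51690 CPM.

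*PME17* was matched by 3 transcripts. The longest, c57257_g1_i1 (2126 bases), aligned to residues 29 to 510 of the 511 residues of the protein with 64% identity. Transcript c59609_g1_i1 (1339 bases) covered residues 15 to 394 with 62% identity, and c21888_g2_i1 (1065 bases) covered residues 30 to 325 with 61% identity. All 3 overlap over much of the protein and so are not pieces of a single assembled copy laid end to end. Whether they are separate genes or alleles was not tested, and fragments may have been divided among them by estimation. The annotation of the matched entry names both pectinesterase and enzyme inhibitor activity and a response to bacteria and fungi.

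*KOR2* was matched by c59000_g2_i1 alone (2704 bases, residues 1 to 607 of 623, 56% identity) and *XTH32* by c50337_g1_i1 alone (1209 bases, residues 8 to 299 of 299, 74% identity). *XTH5* was matched by c56459_g1_i1 (1533 bases) and c56459_g1_i2 (1427 bases), which the assembly placed in the same gene. Both aligned to residues 7 to 293 of the 293 residues of *XTH5*, with 80% and 81% identity. All 4 homologs and all 7 transcripts passed the filter on low counts, among 8154 homologs and 58039 transcripts tested. The assembly was made without a genome, so no genome position is given.

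By TPM, which corrects for transcript length, *PME17* was the member with the highest level in each aquatic library. In replicate order, as for all values by library below, its level was 16.4, 35.0 and 12.98 CPM on land and 5316, 2333 and 972 CPM under water. The lowest aquatic library lay 27.8-fold above the highest terrestrial library. By TPM, *PME17* held rank 32, 65 and 182 among the 8613 homologs in the aquatic libraries and rank 6043, 4197 and 6369 in the terrestrial libraries. *PME17* thus ranked higher in every aquatic library than in any terrestrial library. The mean level was 21.4 ± 11.8 CPM (SD, n = 3) on land and 2874 ± 2222 CPM (SD, n = 3) under water. The fitted log2 fold change was 6.82 (SE 0.88), and it ranged from 6.096 without aquatic replicate 1 to 7.55 without terrestrial replicate 2. Aquatic replicate 2 held most of the fungal matches, and their part in the level of *PME17* was not tested.

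**Figure D1:**
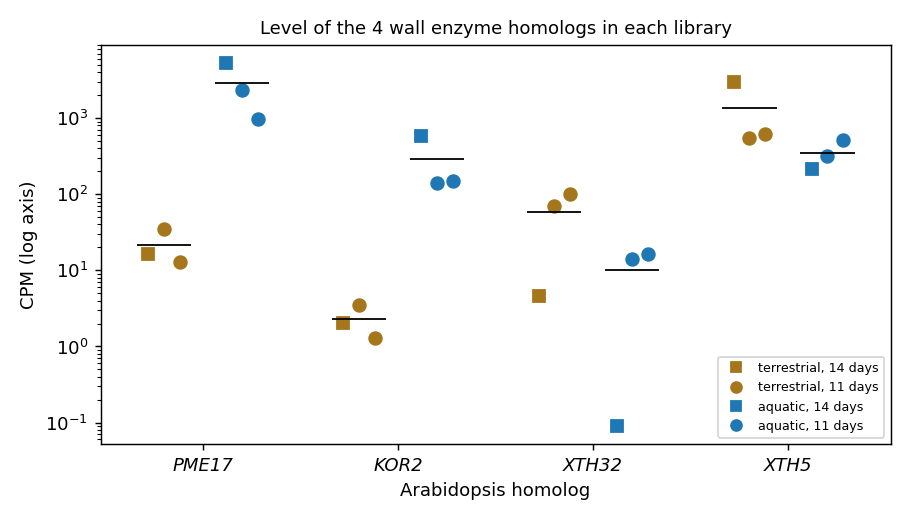
Level of the 4 homologs in each library, in CPM on a log axis; squares are the 14-day libraries, circles the 11-day libraries, and black lines the mean of the 3 libraries of a condition. *PME17* and *KOR2* lie above the terrestrial libraries in all 3 aquatic libraries, by at least 27.8-fold and 39.2-fold, while *XTH32* at 14 days is low in both conditions.

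Most of the *PME17* level came from c57257_g1_i1, which held 82.1% to 98.9% of the *PME17* counts in the terrestrial libraries and 86.6% to 94.99% in the aquatic libraries. It had 16.2, 28.7 and 11.1 CPM on land and 5050, 2112 and 842 CPM under water. The groups did not overlap for this transcript. The other transcripts differed from it in how they varied among the aquatic libraries. Transcript c59609_g1_i1 had 0.186, 0.476 and 1.09 CPM on land and 246.9, 90.4 and 6.099 CPM under water, so its aquatic levels spread over a wide range with replicate 1 highest. Transcript c21888_g2_i1 had no count in terrestrial replicate 1, then 5.78 and 0.771 CPM, and 19.5, 130.4 and 124 CPM under water, with aquatic replicate 1 lowest. Each of the 3 transcripts was above all terrestrial libraries in all aquatic libraries, by at least 29.3-fold, 5.58-fold and 3.38-fold. This belongs to the contrast that chose *PME17*, and the share of all transcripts without overlap was not determined.

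**Figure D2:**
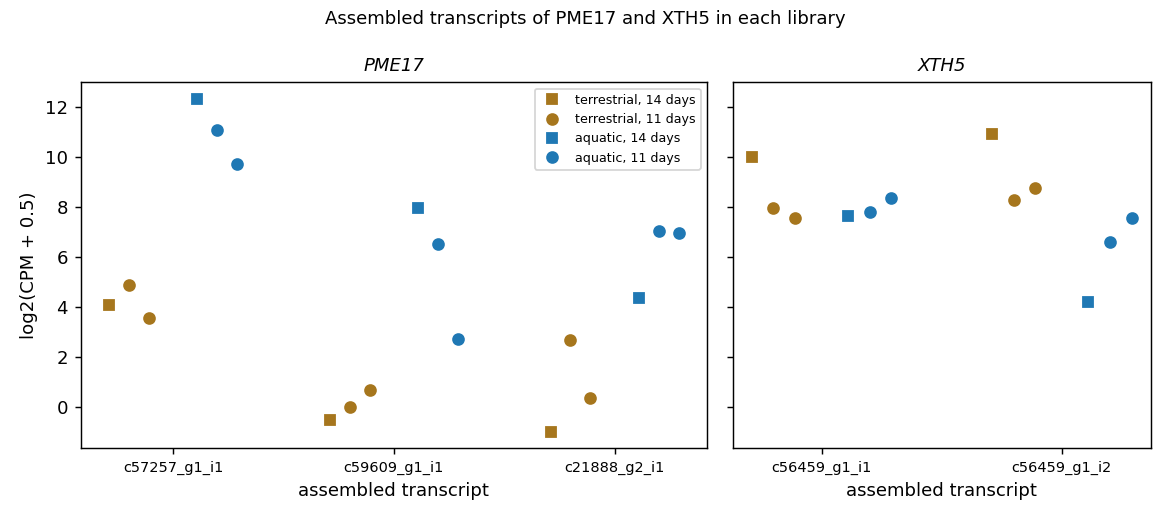
Level of each assembled transcript of *PME17* and *XTH5* in each library, as log2(CPM + 0.5), with squares for 14 days and circles for 11 days. Among the *PME17* transcripts, c59609_g1_i1 is highest in aquatic replicate 1 (246.9 CPM), where c21888_g2_i1 is at its aquatic lowest (19.5 CPM); for *XTH5*, the conditions overlap for c56459_g1_i1 and not for c56459_g1_i2.

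*KOR2*, an endoglucanase closely related to the cellulose synthesis enzyme *KOR1*, was near the bottom of the homologs on land. Its level was 2.05, 3.54 and 1.29 CPM on land, from 33, 52 and 20 counts, and 577, 139 and 147 CPM under water, from 6411, 2017 and 2390 counts. The groups lay 39.2-fold apart at their nearest, the widest gap of the 4 members. By TPM it held ranks 7776 to 8204 on land and ranks 480, 2159 and 1948 under water. Mean levels were 2.29 ± 1.15 CPM on land and 288 ± 251 CPM under water (SD, n = 3 each), and the fitted log2 fold change was 6.62 (SE 0.71), or 5.89 without either library at 14 days. A transcript of the same assembly component, c59000_g1_i1, matched *GH9C2*, another GH9 enzyme, and went the other way, with 30.2, 199 and 146 CPM on land and 3.78, 102 and 97.8 CPM under water. For *GH9C2* the fitted log2 fold change of the homolog was -1.43 (SE 0.49) and did not pass the test (edgeR, adjusted p = 0.102).

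By TPM, *XTH32* was the member of lowest level in each aquatic library, with ranks 8097, 5458 and 5023. It had 4.59, 69.9 and 99.6 CPM on land and 0.0900, 14.0 and 16.1 CPM under water. The groups overlapped, because terrestrial replicate 1 was below aquatic replicates 2 and 3. Within each harvest every aquatic library was below every terrestrial library. *XTH32* was chosen by this contrast, and the share of all homologs in this order was not determined. The count behind aquatic replicate 1 was a single fragment, against 74 fragments in terrestrial replicate 1. Mean levels were 58.0 ± 48.6 CPM on land and 10.1 ± 8.72 CPM under water (SD, n = 3 each), and the fitted log2 fold change was -2.84 (SE 0.45).

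*XTH5* was abundant in both conditions. Its level was 2937, 551 and 611 CPM on land and 215, 314 and 512 CPM under water. The groups did not overlap, but terrestrial replicate 2 and aquatic replicate 3 were only 1.08-fold apart. By TPM it held ranks 35, 225 and 201 on land and 729, 414 and 260 under water. Mean levels were 1366 ± 1360 CPM on land and 347 ± 151 CPM under water (SD, n = 3 each), and the fitted log2 fold change was -1.48 (SE 0.78). Much of this difference rested on the 14-day harvest: without terrestrial replicate 1 or without aquatic replicate 1 the fitted log2 fold change was -0.49 and -0.50.

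The 4 members can be set beside all tested homologs only as a description. The aquatic libraries lay above the terrestrial libraries without overlap for *PME17* and *KOR2*, and for 13.7% of the 8154 homologs. The terrestrial libraries lay above without overlap for *XTH5*, and for 11.8% of the homologs. The rule had already used this contrast, so these counts show nothing further about the members.

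The transcripts of *XTH5* were not in the same proportion in the conditions. Transcript c56459_g1_i2 held 65.6% (95% Wilson interval 65.2 to 66.1%), 55.5% (54.4 to 56.6%) and 69.7% (68.8 to 70.6%) of the *XTH5* counts in terrestrial replicates 1 to 3. Under water it held 8.25% (7.22 to 9.43%), 30.7% (29.4 to 32.05%) and 36.7% (35.7 to 37.7%) in replicates 1 to 3. The conditions did not overlap in this share, with means of 63.6 ± 7.31% on land and 25.2 ± 14.98% under water (SD, n = 3 each), and the intervals cover counting error only. By TPM the mean shares were 65.4% and 26.6%. The shares rest on the estimated division of fragments between transcripts that share sequence, and they belong to the contrast that chose *XTH5*, so no test is given. In CPM, c56459_g1_i2 had 1927, 306 and 426 on land and 17.7, 96.4 and 188 under water, without overlap, whereas c56459_g1_i1 had 1009, 245 and 185 on land and 197, 218 and 324 under water, with overlap. The fitted log2 fold change was -2.81 for c56459_g1_i2. For c56459_g1_i1 it was -0.58 and turned to 0.26 without terrestrial replicate 1 and to 0.29 without aquatic replicate 1.

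**Figure D3:**
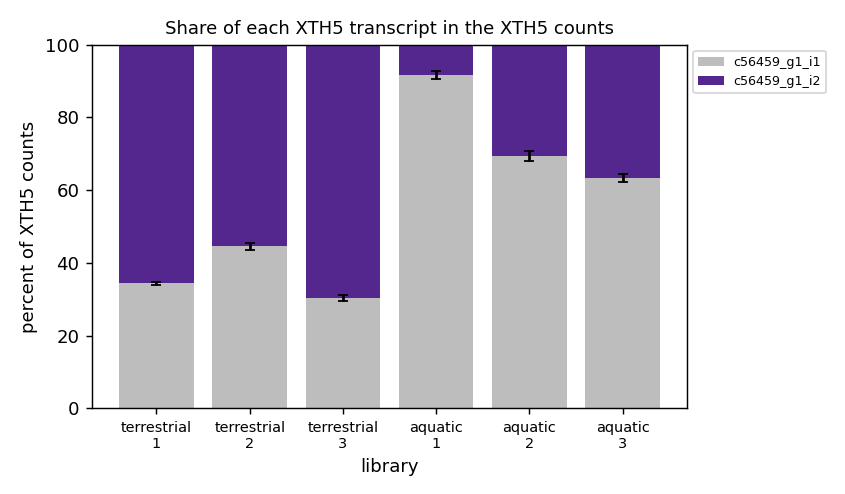
Share of each assembled transcript in the *XTH5* counts of each library, in percent; error bars are 95% Wilson intervals at the boundary of the transcripts. The share of c56459_g1_i2 is 55.5% to 69.7% in the terrestrial libraries and 8.25% to 36.7% in the aquatic libraries.

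Set apart by harvest, all 4 members kept their direction, though they were chosen by this contrast in the same libraries. At 14 days, with 1 library per condition and no replicate check, *PME17* was 325-fold higher under water (exact 95% interval from counting error 288 to 368) and *KOR2* 282-fold higher (201 to 411). At 11 days, with 2 libraries per condition, the ratio of the means was 68.9 for *PME17* and 59.3 for *KOR2*. *PME17* differed between the 4 pairs of 11-day libraries by a log2 ratio of 4.78 to 7.43, and *KOR2* by 5.11 to 6.37. Transcript c21888_g2_i1 of *PME17* had no count in terrestrial replicate 1. Its 14-day ratio was 105 with a floor of 3 counts set in that library, and the exact lower limit from counting error was 84.8. The ratio of its 11-day means was 38.8. For c59609_g1_i1 the 14-day ratio was 1328, with an interval of 454 to 6445 since terrestrial replicate 1 had 3 counts, and the ratio of the 11-day means was 61.5.

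The lower members differed more in their pattern. *XTH32* was 50.9-fold lower under water at 14 days, with an interval of 8.86 to 2038 that follows from the single count, and 5.62-fold lower at 11 days, where the pairs gave log2 ratios of -2.79 to -2.08. *XTH5* was 13.7-fold lower at 14 days (13.1 to 14.2) and 1.41-fold lower at 11 days, where the pairs gave log2 ratios of -0.96 to -0.11. Transcript c56459_g1_i2 was 108.6-fold lower at 14 days (94.4 to 125.6) and 2.57-fold lower at 11 days. Transcript c56459_g1_i1 was 5.12-fold lower at 14 days and 1.26-fold higher at 11 days. *XTH5* thus had a small difference at 11 days and a large one at 14 days, with terrestrial replicate 1 high and aquatic replicate 1 low.

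**Figure D4:**
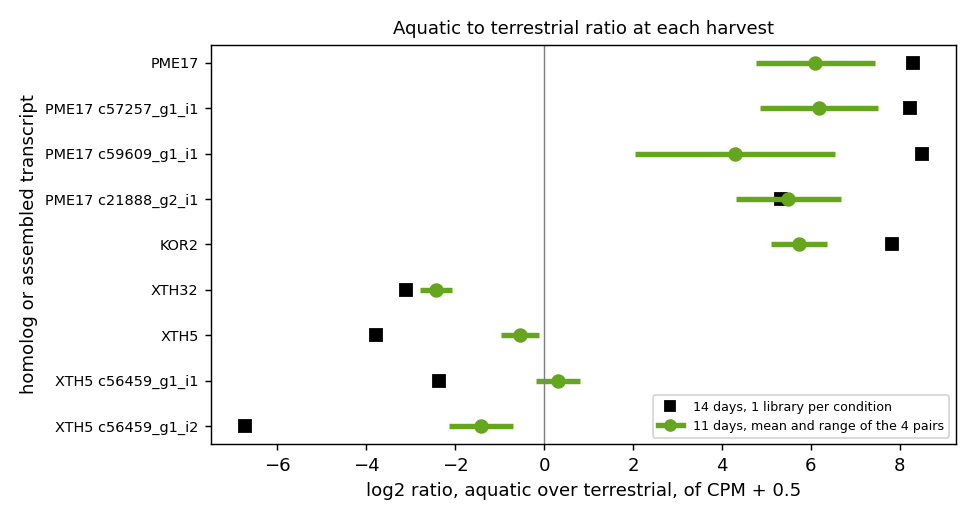
Log2 ratio of aquatic to terrestrial CPM + 0.5 for the homologs and for the transcripts of *PME17* and *XTH5*; black squares are the single pair at 14 days, and green circles and lines the mean and range of the 4 pairs at 11 days. *PME17* and *KOR2* lie far to the right at both harvests, and *XTH5* is at -3.77 at 14 days and between -0.96 and -0.11 at 11 days.

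The harvest itself was balanced over the conditions, was not the contrast that chose the members, and was tested across all homologs with edgeR. *XTH32* was the only one of the 4 homologs past the threshold: it fell from 11 to 14 days, by a log2 fold change of -4.75 (SE 0.58, edgeR, adjusted p = 0.00710). Of all tested homologs, 18.4% were called lower and 15.4% higher at 14 days. The fall was seen in both conditions, with a log2 ratio of -4.05 on land and -4.72 under water. The value under water rests on a single fragment at 14 days (0.0900 CPM), so its size depends on the pseudocount of 0.5 CPM. Without terrestrial replicate 1, that fragment is the whole 14-day level of *XTH32*. The log2 fold change was -7.26 without terrestrial replicate 1 and -4.15 without aquatic replicate 1, and the edgeR adjusted p over the sets lacking 1 library was between 0.00318 and 0.0400. The markers of the shoot apex moved with it: 7 of 8 measured markers were called lower at 14 days, with *STM* and *KNAT1* at 0. The median log2 fold change over all 8 was -6.31. Lower at 14 days as well were *SHR* and *SCR* of the root list, by log2 fold changes of -1.43 (edgeR, adjusted p = 0.0148) and -1.51 (edgeR, adjusted p = 0.00807), and the trichome regulator *GL3*, by -1.71 (edgeR, adjusted p = 0.00862). *EXPA7*, also tested in the root list, went the other way and was not called (log2 fold change 1.575, edgeR, adjusted p = 0.130). The part of these markers in the level of *XTH32* was not tested, and in such bulk samples fewer cells of a type and less RNA per cell cannot be told apart.

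*PME17*, *KOR2* and *XTH5* did not pass the test for harvest, with log2 fold changes of 0.73 (SE 0.74, edgeR, adjusted p = 0.482), 1.17 (SE 0.61, edgeR, adjusted p = 0.194) and 1.03 (SE 0.82, edgeR, adjusted p = 0.374). In these 3 the conditions gave log2 ratios of opposite sign. On land, however, *PME17* at 14 days (16.4 CPM) lay between its 11-day libraries (35.0 and 12.98 CPM). The same held on land for *KOR2* (2.05 CPM against 3.54 and 1.29 CPM), so no fall on land is shown for either. From 11 to 14 days *PME17* changed by a log2 ratio of -0.38 on land and 1.82 under water, *KOR2* by -0.08 and 2.01, and *XTH5* by 2.34 and -0.90. Whether the conditions differ in this respect was not tested, since it involves the contrast that chose the members and each condition had 1 library at 14 days. Leaving out a library changed 2 of these calls: without terrestrial replicate 1, *KOR2* was higher at 14 days by 2.01 (edgeR, adjusted p = 0.0268), and without aquatic replicate 1, *XTH5* was higher by 2.40 (edgeR, adjusted p = 0.0118). Among the transcripts, c21888_g2_i1 of *PME17* was lower at 14 days in both conditions, by log2 ratios of -2.50 on land and -2.67 under water, but did not pass (fitted log2 fold change -3.46, edgeR, adjusted p = 0.0629). It did pass by DESeq2 (-4.07, adjusted p = 0.000755), by edgeR with the library total alone (-3.97, adjusted p = 0.0477) and by edgeR without terrestrial replicate 2 (-3.15, adjusted p = 0.0377). In all other alternatives run it did not pass (edgeR, adjusted p = 0.0606 to 0.530). Transcript c50337_g1_i1 of *XTH32* did pass (-4.95, edgeR, adjusted p = 0.00684), as did 9.72% of all tested transcripts in this direction.

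Over the 6 libraries, Pearson's r of log2(CPM + 1) between *PME17* and *KOR2* was 0.992, but the values share libraries and scaling, and both genes were chosen for the same difference between the conditions. In aquatic replicates 2 and 3, *PME17* had 2333 and 972 CPM where *KOR2* had 139 and 147 CPM, so within the 11-day aquatic libraries they did not go the same way. Of 6641 homologs with a mean of at least 10 CPM, those most like *PME17* were AT3G13650 (r = 0.998), the fatty acid hydroxylase *FAH1* (r = 0.996) and AT4G18530 (r = 0.994). AT3G13650 had 0.558, 1.43 and 0.707 CPM on land and 211, 120 and 58.2 CPM under water. Those most like *KOR2* were the potassium transporter *HAK5* (r = 0.9995), AT2G14255 (r = 0.999) and the histone deacetylase *HDA18* (r = 0.998). *HAK5* had 7.31, 9.25 and 6.17 CPM on land and 331, 131 and 125 CPM under water, while AT2G14255 ran only from 28.0 to 45.4 CPM.

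The xyloglucan enzymes did not follow each other. Pearson's r between *XTH32* and *XTH5* was 0.133 over the 6 libraries. Those most like *XTH32* were *PGL1* of the pentose phosphate pathway (r = 0.999), AT4G38020 (r = 0.997) and the ribosomal protein gene *emb2171* (r = 0.997), which all had their lowest levels at 14 days under water. Those most like *XTH5* were the sulfate transporter homolog *AST91* (r = 0.997), AT4G18540 (r = 0.993) and the thylakoid protein gene *OHP* (r = 0.991), each highest in terrestrial replicate 1. *OHP* had 310, 165 and 167 CPM on land and 117, 118 and 153 CPM under water.

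No other tested gene of wall building and loosening had a fitted fold change as large as *PME17* and *KOR2*, though these were picked for theirs. In 9 lists of wall genes with 163 Arabidopsis genes besides the members, 76 had a homolog and 70 were tested. Of these, 4 were higher and 7 lower under water (edgeR, adjusted p under 0.05), with a median log2 fold change of -0.27, against 9.6% of all homologs higher, 6.78% lower and a median of -0.02. With the replicate number as a block, 4 were higher and 3 lower. The number of wall genes called changed with the library left out. Among the 11-day libraries, omitting aquatic replicate 2 left 0 higher and 0 lower, and omitting aquatic replicate 3 left 4 and 2. On land at 11 days, omitting replicate 2 left 3 higher and 1 lower, and omitting replicate 3 left 1 and 0. Omitting a 14-day library raised the number instead, to 12 higher and 14 lower (the terrestrial one) or 13 and 15 (the aquatic one). Whether the lower numbers come from a particular library or from having fewer libraries was not tested. Without aquatic replicate 2 no homolog of the 8219 tested was called by edgeR, while 2478 had an unadjusted p under 0.05. At 11 days alone, a fit added later, 14 were higher and 14 lower, against 10.8% and 8.93% of the 8210 homologs tested in it. Of 8 measured markers of meristems and dividing cells, 5 were called lower under water (1 of 8 with the block). The meristem genes *STM* and *KNAT1* went the other way, with log2 fold changes of 0.40 and 0.92, and were not called. The Rubisco gene *RBCS1A*, 1 of 3 green leaf markers, was lower by a log2 fold change of -1.44 (edgeR, adjusted p = 0.0335, and 0.0878 with the block). The other green leaf markers were not called, *LHCB1.3* at 0.01 (edgeR, adjusted p = 0.979) and *RCA* at -0.91 (edgeR, adjusted p = 0.0769). The part of these markers in the counts of wall genes called was not tested.

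Among the other pectin methylesterases, the enzymes of the *PME17* kind, 14 of 30 were tested, 2 were higher and 2 lower, and the median log2 fold change was -0.34. *PME35*, which in Arabidopsis takes part in the strength of the stem, went the way of *PME17*: it had 6.69, 1.02 and 1.54 CPM on land and 319, 30.6 and 25.3 CPM under water, a rise of 4.89 on the log2 scale (SE 0.34, edgeR, adjusted p = 0.00724). *PME41*, named after its values were seen, rose from 15.5 ± 12.3 to 95.7 ± 23.8 CPM (edgeR, adjusted p = 0.0116). For both, every aquatic library lay above every terrestrial library. *PME5*, known in Arabidopsis for softening the wall at the shoot apex, had no count at 14 days in either condition, and 18.2 and 21.0 CPM on land against 1.38 and 1.79 CPM under water at 11 days (log2 fold change -3.61, edgeR, adjusted p = 0.0114). *PME53* fell from 39.4 ± 22.9 to 14.4 ± 8.29 CPM (log2 fold change -1.47, edgeR, adjusted p = 0.0114). All 4 also passed with the block. The most counted of this list, *PME34*, had 600.0 ± 403.7 CPM on land and 689 ± 223 CPM under water and did not pass (edgeR, adjusted p = 0.261). Among these homologs the direction was thus mixed.

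Enzymes that cut pectin or control pectin methylesterases, and those that make pectin, gave 1 call in all. Of 5 tested in the former list, the polygalacturonase *PGX3* alone passed, lower under water at 15.5 ± 7.39 against 0.956 ± 0.832 CPM (log2 fold change -4.22, edgeR, adjusted p = 0.0175, and 0.0558 with the block). The subtilisin-like protease *SBT1.7* had 881 ± 549 CPM on land and 234 ± 109 CPM under water and did not pass (edgeR, adjusted p = 0.112). None of 7 tested genes of pectin synthesis passed, the most counted being the methyltransferase *CGR2* at 269 ± 43.7 and 233 ± 73.9 CPM (edgeR, adjusted p = 0.251).

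None of the relatives of *KOR2* was called higher under water by edgeR, while DESeq2 called 1 higher. Of 7 other GH9 enzymes tested, with a median log2 fold change of -1.19, *GH9C3* alone passed, and it was lower under water, at 15.2 ± 14.0 against 4.17 ± 3.62 CPM (log2 fold change -2.04, edgeR, adjusted p = 0.0446, and 0.107 with the block). *KOR1*, the membrane-bound endoglucanase needed for normal cellulose synthesis, had 438 ± 20.3 CPM on land and 700.0 ± 173.8 CPM under water and did not pass (log2 fold change 0.68, SE 0.22, edgeR, adjusted p = 0.0880). The aquatic libraries of *KOR1*, at 688, 532 and 879 CPM, all lay above its terrestrial libraries, at 427, 426 and 462 CPM. Such a lack of overlap was found for 13.7% of all tested homologs. The range of *KOR1* over all libraries was narrow beside that of *KOR2*. None of 8 tested cellulose synthesis genes passed, and *CESA3*, a catalytic subunit of the primary wall complex, had 867 ± 79.2 and 848 ± 22.8 CPM (edgeR, adjusted p = 0.873).

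Among 9 other xyloglucan endotransglucosylase/hydrolases tested, 8 had a fitted log2 fold change below 0, the median was -0.80 and 1 passed. *XTH26*, known from root hairs in Arabidopsis, was lower under water, at 4.21 ± 2.63 against 0.566 ± 0.312 CPM (log2 fold change -2.81, edgeR, adjusted p = 0.0211, and 0.0423 with the block). *XTH30*, the most counted of those not past the threshold, had 948, 71.6 and 52.2 CPM on land and 1022, 238 and 330 CPM under water (log2 fold change 1.52, edgeR, adjusted p = 0.0973). It was high at 14 days in both conditions, the opposite of *XTH32* (log2 fold change for harvest 3.02, edgeR, adjusted p = 0.0146). In the list of xyloglucan synthesis and trimming, 2 of 6 passed, both lower under water. These were the xylosidase *XYL1* at 160 ± 75.1 against 69.3 ± 45.7 CPM (edgeR, adjusted p = 0.0338, and 0.0878 with the block) and the fucosidase *AXY8* at 86.5 ± 49.9 against 10.5 ± 9.01 CPM (edgeR, adjusted p = 0.0343, and 0.0920 with the block), enzymes that trim side chains of xyloglucan. The xylosyltransferase *XXT2*, which adds them, had 125 ± 15.6 and 120 ± 34.2 CPM (edgeR, adjusted p = 0.673).

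No expansin, a protein that loosens walls without cutting them, passed among 9 tested, and the most counted, *EXLA1*, had 280 ± 371 CPM on land and 289 ± 230 CPM under water (edgeR, adjusted p = 0.224). Of 5 kinases that sense the wall, 2 were higher under water. *WAK2*, a kinase that binds pectin, had 94.1, 66.7 and 31.0 CPM on land and 1112, 543 and 321 CPM under water (log2 fold change 3.28, SE 0.40, edgeR, adjusted p = 0.0144), with 29 transcripts merged under this match. The conditions overlapped for *WAK1*, with 22.5, 1.43 and 2.57 CPM on land and 95.9, 17.8 and 14.2 CPM under water. Its means were 8.83 ± 11.8 and 42.6 ± 46.2 CPM (log2 fold change 2.66, edgeR, adjusted p = 0.0146). *WAK2* and *WAK1* also passed with the block. *FER*, a receptor kinase of growing cells, had 421 ± 256 and 513 ± 228 CPM and did not pass (edgeR, adjusted p = 0.112).

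**Figure D5:**
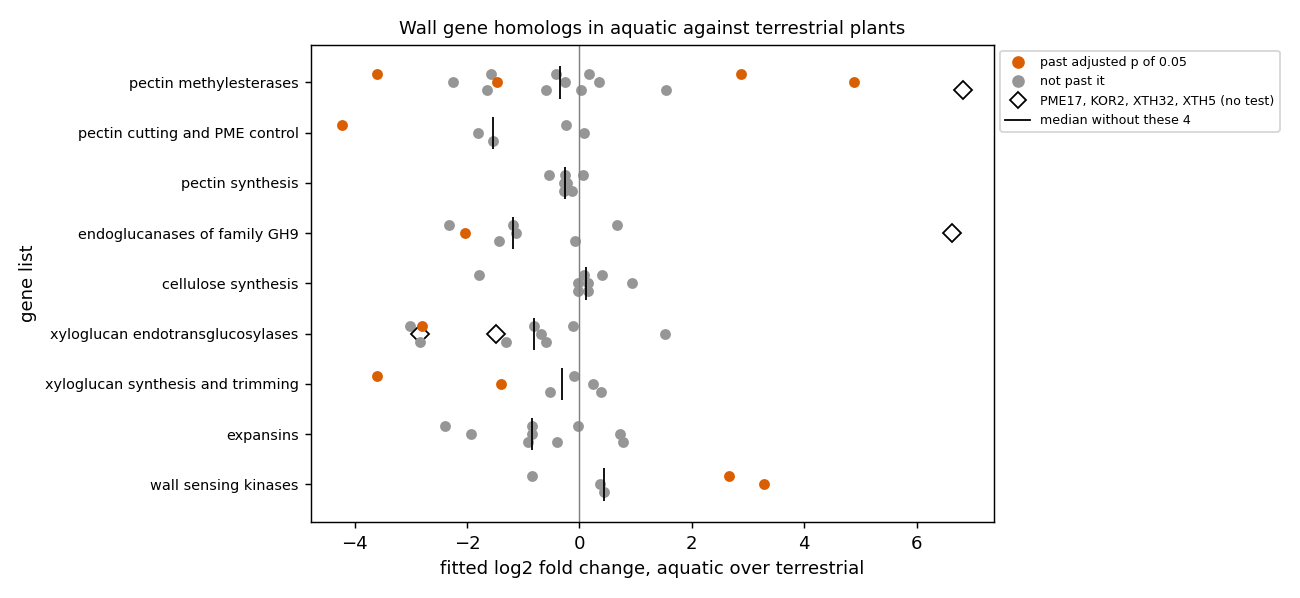
Fitted log2 fold change, aquatic over terrestrial, of the tested homologs in 9 lists of wall genes; orange points passed an adjusted p of 0.05, grey points did not, black lines are list medians, and diamonds are the 4 members, which carry no test. *PME17* and *KOR2* lie at 6.82 and 6.62, and the next highest point is *PME35* at 4.89.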

How the data were processed

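The 6 libraries were grouped by their labels, 3 terrestrial and 3 aquatic. Per the authors' methods, Trinity built the transcripts de novo, reads were mapped by TopHat, and FPKM came from Cufflinks, all with no version stated. Per the file headers each library file gives its values per assembled transcript. The expected counts as deposited, estimated for every transcript, were whole numbers in each library, with 25345718 to 33978729 per library. The deposited TPM values correct for transcript length and sum to a fixed total in each library, and the deposited FPKM values precede the quantile normalization of the authors' methods. The deposited annotation table gives the best protein match of a transcript with its bit score and percent identity, as made by the authors with a search tool not given in the sources used here. Its 6 columns of values per library were not used here, nor were the authors' tables of leaf GO terms, which hold FPKM per condition and log2 fold changes.

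Expected counts were summed over transcripts with the same Arabidopsis match. CPM is the count relative to the TMM-scaled homolog total, for homologs and transcripts alike. The test was edgeR 4.0.16 (quasi-likelihood) in R 4.3.3, with a minimum count of 10, terms for harvest and condition, and Benjamini-Hochberg adjustment over all homologs or all transcripts tested. The code was checked on simulated counts. Ratios by harvest used a pseudocount of 0.5 CPM on the log2 scale, and intervals are exact binomial for folds and Wilson for shares, at 95%, covering counting error only. Python 3.11.15, pandas 2.3.3, scipy 1.17.1 and matplotlib 3.10.9 made tables and plots.

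The members, the wall and marker lists and the tests were chosen with earlier results of these data known. Named genes are the members, in each wall list up to 3 past the threshold with the smallest p and the most counted one not past it, and the 3 homologs most correlated with each member. Alternatives were DESeq2 1.42.0, limma 3.58.1 on quantile-normalized log2(FPKM + 1), other scalings, filters and terms, and leaving out each library. An interaction of harvest and condition was also fitted, but its p-values are not given, since it involves the contrast that chose the members. Deviations of same-numbered libraries from the mean of their condition correlated at 0.663, 0.547 and 0.470 over homologs. Terrestrial replicate 3 and aquatic replicate 2 correlated at 0.598, and the correlation within the 11-day harvest was -0.0799. These values do not settle whether the numbers pair the libraries. The main fit therefore did not pair them, and the block by replicate number was run as an alternative.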

Additional observations from a re-analysis of the deposited data

How the results depend on the processing

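The direction of all 4 members between the conditions was the same under every alternative run, with the log2 fold change of *KOR2* at 4.96 by limma. The members were chosen by this contrast in these same libraries, so their kept direction was largely fixed in advance and adds no support. Over sets lacking 1 library, transcript c56459_g1_i1 of *XTH5* ran from -1.06 to 0.29, turning to 0.26 without terrestrial replicate 1 and 0.29 without aquatic replicate 1, and it was 0.28 at 11 days alone. The harvest difference of c56459_g1_i2 ran from -3.17, without terrestrial replicate 1 (edgeR, adjusted p = 0.0138), to 2.22. The harvest difference of *XTH32* was -4.38 without a condition term (edgeR, adjusted p = 0.143), and over sets lacking 1 library that of *KOR2* was -0.17 to 2.01 and that of *XTH5* -0.95 to 2.40. At 14 days the log2 ratio of *PME17* was 7.95 by TPM, that of *KOR2* 6.83 by TPM and 7.57 with a pseudocount of 1, that of *XTH32* -2.55 by TPM, -2.36 with a pseudocount of 1 and -3.05 by library total alone, and that of *XTH5* -4.13 by TPM. At 11 days that of *KOR2* was 4.91 by TPM. With the replicate number as a block, 327 homologs were higher and 118 lower under water, against 783 and 553 without it, 2364 transcripts higher and 956 lower, and of the wall lists 4 higher and 3 lower. The block ended the calls of *PGX3*, *GH9C3*, *XYL1* and *AXY8* and of no other named gene. Harvest could not be fitted with the block. Without a harvest term 25 homologs were higher and 9 lower, 746 transcripts higher and 294 lower, and of the wall lists 0 higher and 0 lower. DESeq2 gave 1371 higher and 1313 lower homologs, 4408 lower transcripts, and of the wall lists 8 higher and 19 lower, and limma gave 11 lower. At 11 days alone the wall lists had 14 higher and 14 lower. Library total alone gave 2305 transcripts higher under water and 1360 higher at 14 days. With no filter on low counts, which tests more features, 1284 transcripts were higher and 542 lower under water, and 828 higher and 2148 lower at 14 days. Without a condition term 234 homologs were higher and 524 lower at 14 days, and 444 transcripts higher and 1275 lower. Over sets lacking 1 library, 0 to 870 homologs were higher and 0 to 758 lower under water, 1204 to 4022 transcripts higher and 434 to 2695 lower, and of the wall lists 0 to 13 higher and 0 to 15 lower. At 14 days the same sets gave 473 to 1166 homologs higher and 620 to 1740 lower, and 1121 to 2901 transcripts higher and 2104 to 6229 lower. Beyond the fewer libraries or features of a setting, the cause of these shifts was not tested. Leaving out the 3 most counted transcripts of aquatic replicate 1 gave 3718 transcripts higher at 14 days and does not bear on homologs, since none of them is annotated. Depth limits *XTH32* at 14 days under water, which rests on 1 count.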

Other observations

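The assembly grouped 3 transcripts without annotation with those of *PME17* in the same components, and all 3 were above every terrestrial library in every aquatic library. Of the tested homologs, 13.7% lay this way, and the share over all transcripts was not determined. *PME17* was chosen by this contrast, so the order of these neighbours adds no support. Transcript c59609_g2_i1 (569 bases) had 0, 0.204 and 0.193 CPM on land, in replicate order, and 74.1, 25.7 and 2.28 CPM under water, highest in aquatic replicate 1 as was c59609_g1_i1. Transcript c59609_g1_i2 (847 bases), assigned to the same gene as c59609_g1_i1, instead had 5.13, 23.2 and 20.1 CPM under water and at most 0.272 CPM on land, lowest of the aquatic libraries in replicate 1. Transcript c21888_g1_i1 (718 bases) had 0, 4.76 and 0.771 CPM on land and 12.4, 81.1 and 98.7 CPM under water, also lowest of the aquatic libraries in replicate 1, as was c21888_g2_i1. These transcripts have no match and were not counted in *PME17*.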
